A study of Mus musculus with 10 samples.

Results

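Genes that mark fibroblasts and contractile stromal cells without encoding structural matrix were followed in sorted tumour macrophages: the receptor genes Pdgfra and Pdgfrb, the cell-surface genes Fap and Thy1, the transcription factor genes Twist1 and Prrx1, the secreted-protein genes Pi16 and Fstl1, and the contractile genes Acta2 and Tagln. They were chosen by name, each name matched 1 row of the count table, and they make up 10 of the 46603 genes in it. The libraries came from 4T1 tumours, which grow from a mouse mammary carcinoma line. Viable cells bearing CD11B and F4/80 were sorted from enzymatically digested tumours, as 5 libraries of cells that also bore podoplanin (PDPN), called PoEMs, and 5 libraries of cells without it, called non-PoEMs. No treatment, mouse strain, age or altered gene is given in the labels. Tumours 1, 2, 4, 5 and 6 each gave 1 library of either fraction, so the fractions are paired by tumour, and the labels do not say whether each tumour came from its own mouse. The series as a whole asks what podoplanin-bearing macrophages do in lymphatic vessel growth and matrix remodelling, and these genes bear on how much stromal RNA lay among the sorted cells.

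Fibroblasts build and repair connective tissue, and in tumours many of them take on an activated, contractile form. They answer platelet-derived growth factors through the tyrosine kinase receptors PDGFRA and PDGFRB, the second of which also marks pericytes, and once activated they may bear the protease FAP and assemble fibres of smooth muscle actin (Acta2) with transgelin (Tagln). None of these genes is confined to fibroblasts: Thy1 is also a T cell gene in mice, Twist1 is known for its part in the spread of 4T1 carcinoma cells, and podoplanin itself is borne by many activated fibroblasts.

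Library totals lay between 12597829 and 15406722 counts, so that 1 count was worth 0.0652 to 0.0782 CPM (library-size-scaled counts, by the TMM method). Macrophage genes were far more abundant than the 10 genes in both fractions. A list of 12 macrophage markers summed to between 25766 and 28815 CPM in PoEMs and between 23825 and 27442 CPM in non-PoEMs. The 10 stromal genes together reached 83.5, 66.4, 62.04, 81.9 and 104.8 CPM in PoEMs of tumours 1, 2, 4, 5 and 6, against 41.8, 43.0, 37.8, 40.5 and 61.3 CPM in non-PoEMs of the same tumours. The sum was higher in the PoEM library of each tumour, by 34.9 CPM on average. Pi16 made up much of it, and without Pi16 the sums ran from 35.5 to 49.9 CPM in PoEMs and from 16.5 to 18.4 CPM in non-PoEMs. In such bulk libraries the number of stromal cells, the RNA per stromal cell and expression by the sorted macrophages themselves cannot be told apart. The sort kept only cells bearing CD11B and F4/80, and no library of unsorted stroma was analysed here.

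Promoter sequences are shown for 3 of the genes whose results differ most: Acta2, a contractile gene that was higher in PoEMs, Fstl1, which had the largest change, and Twist1, which did not pass the test. RefSeq promoter windows of GRCm38.p6 (250 bases before to 50 bases after the gene's start, 5′ to 3′ on the gene's strand) matched 6 of the 10 genes: Pdgfra, Twist1, Prrx1, Pi16, Fstl1 and Acta2. Capitals mark matches, on either strand, to 4 patterns: a CArG-like box, the TATA box searched as TATAAA, the TEAD-binding core searched as CATTCC, and the GC box of SP-family factors searched as GGGCGG. A CArG box is the element bound by serum response factor in smooth muscle genes, and the CArG-like form allows 1 strong base among the 6 weak ones of its core. The windows are chr19:34255324-34255623 (minus strand) for Acta2, chr16:37776805-37777104 (plus strand) for Fstl1 and chr12:33957421-33957720 (plus strand) for Twist1. For Acta2 and Fstl1 the start used for the window lies inside the gene positions given further below. Those positions come from another annotation, GENCODE M21, which begins both genes further upstream.
Acta2: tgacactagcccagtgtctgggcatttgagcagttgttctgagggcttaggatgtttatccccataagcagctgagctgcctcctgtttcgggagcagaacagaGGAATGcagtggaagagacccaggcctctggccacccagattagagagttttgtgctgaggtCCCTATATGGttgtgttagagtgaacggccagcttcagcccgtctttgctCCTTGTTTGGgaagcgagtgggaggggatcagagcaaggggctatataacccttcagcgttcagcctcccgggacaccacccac
Fstl1: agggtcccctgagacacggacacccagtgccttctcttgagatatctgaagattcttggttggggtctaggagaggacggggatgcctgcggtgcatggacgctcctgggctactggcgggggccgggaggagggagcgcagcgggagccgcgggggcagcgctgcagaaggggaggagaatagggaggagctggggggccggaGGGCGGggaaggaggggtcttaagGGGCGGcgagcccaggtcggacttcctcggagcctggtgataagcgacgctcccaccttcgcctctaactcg
Twist1: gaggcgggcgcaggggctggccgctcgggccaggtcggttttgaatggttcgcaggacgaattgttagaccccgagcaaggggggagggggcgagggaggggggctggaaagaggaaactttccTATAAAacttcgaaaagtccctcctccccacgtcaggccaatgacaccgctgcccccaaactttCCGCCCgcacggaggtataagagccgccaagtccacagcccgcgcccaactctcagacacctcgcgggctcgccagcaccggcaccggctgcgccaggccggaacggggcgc
Acta2 held 2 CArG-like boxes, starting 84 and 34 bases before the start used for its window, and neither matched the strict CArG form. It also held 1 CATTCC motif, the core of the MCAT element bound by TEAD factors, on the opposite strand and starting 146 bases before that start. By the GENCODE positions all 3 matches lie within the gene. Across 27018 promoter windows, 9.99% held a CArG-like box, 1.57% a strict one and 14.6% a CATTCC motif. The other 5 windows held no CArG-like box. Fstl1 held 2 GGGCGG motifs, a pattern found in 35.9% of windows, and Twist1 held 1 GGGCGG and 1 TATAAA, the second of which was found in 14.2% of windows. These matches describe letters in the windows and say nothing of binding.

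Of the 10 genes, 7 were higher in PoEMs than in non-PoEMs and 0 were lower (p under 0.05 by edgeR's quasi-likelihood test after Benjamini-Hochberg adjustment across 13595 genes). This fit used the group alone and left out the pairing by tumour. The SE and p-values below come from it unless a tumour block or a dropped library is named. Over all genes tested, 6.83% were called higher and 6.77% lower. The 7 were Fstl1, Prrx1, Pdgfra, Thy1, Tagln, Acta2 and Pdgfrb, and in each of them the highest non-PoEM library lay below the lowest PoEM library, as in 5.38% of all genes tested (the reverse held in 5.13%, and for 0 of the 10). Prrx1 passed the filter on low counts only through the PoEM libraries where it is high, so it adds little to either count. Fap, Twist1 and Pi16 did not pass the test, and their groups overlapped. No member had an unadjusted edgeR p under 0.05 in the lower direction, and DESeq2 called 0 lower as well. The median over the 10 genes was 1.39 on the log2 scale, against 0.01 over all genes tested. Once the tumour entered the fit as a block, Pi16 also passed, which made 8 higher, and the background was then 13.8% higher and 14.3% lower.

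**Figure D1:**
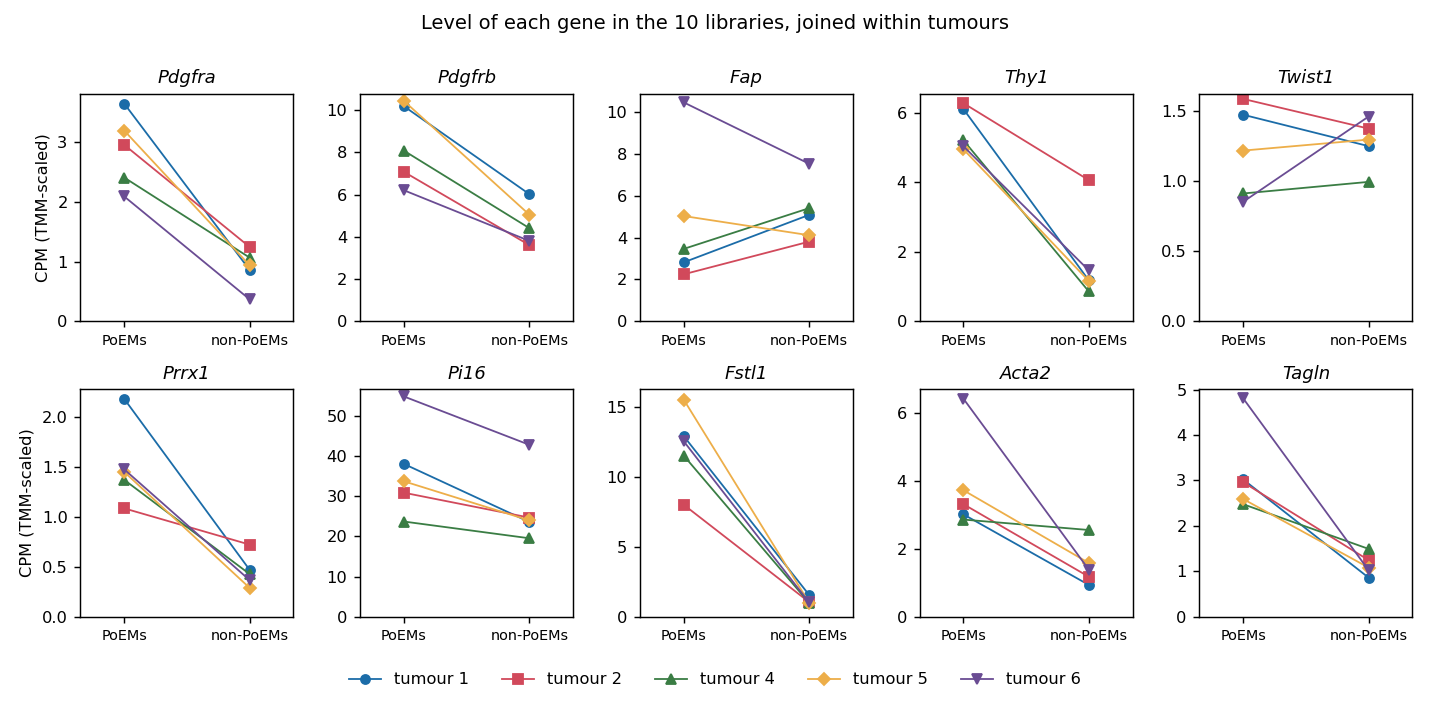
TMM-scaled CPM of each of the 10 genes (vertical axes, linear, each from 0) in the PoEM and the non-PoEM library of 5 tumours, with lines joining the libraries of 1 tumour. For Fstl1 all PoEM libraries lie between 8.02 and 15.5 CPM and all non-PoEM libraries between 0.995 and 1.56 CPM, while the lines of Fap and Twist1 run both ways.

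The PDGF receptor genes were both higher in PoEMs. Pdgfra (ENSMUSG00000029231, chromosome 5, 75152292 to 75198215 of GRCm38, plus strand), which marks most fibroblasts, measured 3.65, 2.96, 2.41, 3.20 and 2.09 CPM in PoEMs of tumours 1, 2, 4, 5 and 6, against 0.860, 1.25, 1.07, 0.937 and 0.366 CPM in non-PoEMs. The fractions did not overlap, and tumour 6 was lowest in both. The log2 fold change was 1.66 ± 0.27 (SE, edgeR adjusted p = 0.00161). These values rest on few reads, 199 in the 5 PoEM libraries together and 63 in the 5 non-PoEM libraries.

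Pdgfrb (ENSMUSG00000024620, chromosome 18, 61045150 to 61085061, plus strand), the receptor shared by fibroblasts and pericytes, measured 10.2, 7.08, 8.08, 10.4 and 6.20 CPM in PoEMs, against 6.02, 3.60, 4.41, 5.05 and 3.80 CPM in non-PoEMs. Its log2 change was smaller, at 0.88 ± 0.18 (SE, edgeR adjusted p = 0.00693), and even across tumours: the PoEM library was 1.63 to 2.07 times its partner. Whether the fold changes of the receptors differ was not tested. Csf1r, the macrophage colony-stimulating factor receptor gene, begins 15537 bases downstream of Pdgfrb on the same strand and was listed at 2405 ± 226 CPM in PoEMs and 2849 ± 133 CPM in non-PoEMs (SD, n = 5 each). Csf1r was lower in PoEMs (log2 fold change -0.24 ± 0.08 SE, edgeR adjusted p = 0.0493). Without the block this no longer held once any single library other than non-PoEMs of tumour 1 or PoEMs of tumour 6 was dropped (adjusted p up to 0.111). The blocked fit also called Csf1r lower (adjusted p = 0.00485).

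No PDGF ligand gene passed the test without the block. Pdgfa measured 28.5 ± 4.18 CPM in PoEMs and 23.5 ± 7.05 CPM in non-PoEMs, and Pdgfb 79.0 ± 14.02 CPM in PoEMs and 88.9 ± 8.52 CPM in non-PoEMs (SD, n = 5 each, edgeR adjusted p = 0.328 and 0.379). In the blocked fit Pdgfa was higher (adjusted p = 0.0129) and Pdgfb lower (adjusted p = 0.0315). Pdgfc differed by 0.06 ± 0.19 on the log2 scale (SE), and Pdgfd lay below the filter, with 5 counts in all PoEMs and 2 in all non-PoEMs.

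The surface genes parted ways. Thy1 (ENSMUSG00000032011, chromosome 9, 44043384 to 44048579, plus strand), which encodes the membrane-anchored glycoprotein CD90, measured 6.11, 6.28, 5.21, 4.95 and 5.04 CPM in PoEMs, against 1.17, 4.06, 0.853, 1.154 and 1.46 CPM in non-PoEMs. The PoEM libraries lay close together, and 1 non-PoEM library, that of tumour 2, stood well above the other 4. The log2 fold change was 1.64 ± 0.34 (SE, edgeR adjusted p = 0.0087), and 2.24 without that library. T cell markers, a list of 12 genes added after these values were seen, summed to 63.4 CPM in the non-PoEM library of tumour 2 and to between 21.7 and 31.7 CPM in the other non-PoEM libraries. In PoEMs they summed to 28.1 CPM in tumour 2 and to between 13.1 and 17.98 CPM in the other tumours. Cd4 alone, at 10.5 CPM in PoEMs and 21.1 CPM in non-PoEMs on average, made up much of the sum and was the single called gene (lower) among the 3 tested, and the T cell receptor complex genes Cd3e, Cd3g and Trac were not lower in each tumour. The part of T cell RNA in the level of Thy1 was not tested.

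Fap (ENSMUSG00000000392, chromosome 2, 62500943 to 62574075, minus strand), which encodes fibroblast activation protein, a serine protease of activated fibroblasts, measured 2.81, 2.24, 3.45, 5.03 and 10.5 CPM in PoEMs, against 5.08, 3.80, 5.403, 4.11 and 7.53 CPM in non-PoEMs. It was higher in PoEMs of tumours 5 and 6 and lower in PoEMs of tumours 1, 2 and 4, and tumour 6 was highest in both fractions. The fitted log2 difference was -0.12 ± 0.39 (SE, edgeR adjusted p = 0.88), and -0.21 ± 0.21 in the blocked fit (adjusted p = 0.502). Fap counts were not scarce, at 325 in all PoEMs and 359 in all non-PoEMs. The SE is wide, and the missed threshold does not show that the fractions had equal levels. Ifih1, an interferon-induced RNA sensor gene that lies 21723 bases from Fap on the same strand, measured 94.7 ± 16.2 CPM in PoEMs and 125.5 ± 23.1 CPM in non-PoEMs (SD, n = 5 each, edgeR adjusted p = 0.0879).

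**Figure D2:**
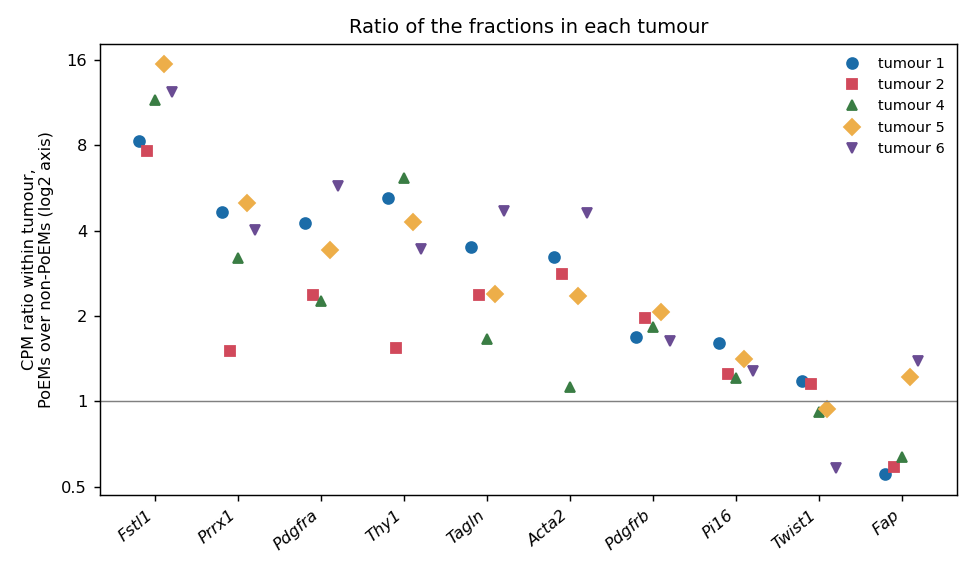
CPM of the PoEM library divided by that of the non-PoEM library of the same tumour (log2 axis), by gene in order of fitted fold change, 1 symbol per tumour. Ratios of Fstl1 run from 7.64 to 15.4, all 5 ratios of Pi16 lie between 1.21 and 1.61, and those of Twist1 and Fap lie on both sides of 1.

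Of the transcription factor genes, Prrx1 was higher and Twist1 did not pass the test. Prrx1 (ENSMUSG00000026586, chromosome 1, 163245119 to 163313710, minus strand), a homeobox gene of limb and connective tissue mesenchyme, measured 2.18, 1.08, 1.37, 1.45 and 1.47 CPM in PoEMs, against 0.469, 0.721, 0.427, 0.288 and 0.366 CPM in non-PoEMs. The fractions did not overlap, and the smallest gap was in tumour 2, where the ratio was 1.503. The log2 fold change was 1.70 ± 0.29 (SE, edgeR adjusted p = 0.00226), from 105 reads in PoEMs and 32 in non-PoEMs. Prrx1 passed the filter on low counts only through the PoEM libraries, since no non-PoEM library reached the level of 0.725 CPM that the filter uses, so it could hardly have entered the test without a difference.

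Twist1 (ENSMUSG00000035799, chromosome 12, 33957671 to 33959829, plus strand), a basic helix-loop-helix gene of mesenchyme that carcinoma cells can switch on, measured 1.48, 1.59, 0.912, 1.22 and 0.853 CPM in PoEMs, against 1.25, 1.38, 0.995, 1.30 and 1.46 CPM in non-PoEMs. The ranges overlapped almost fully, with tumours 1 and 2 higher in PoEMs and tumours 4, 5 and 6 lower. The log2 difference was -0.08 ± 0.23 (SE, edgeR adjusted p = 0.867), with 84 reads in PoEMs and 89 in non-PoEMs. Epithelial and 4T1 carcinoma markers, another source in which Twist1 can be expressed, had 0 of 18 called in either direction, and 12 were tested. Epcam, which encodes an epithelial adhesion molecule, measured 2.14 ± 0.672 CPM in PoEMs and 3.32 ± 0.583 CPM in non-PoEMs (SD, n = 5 each, edgeR adjusted p = 0.0889). In the blocked fit, 1 of these markers was higher and 4 were lower, Epcam among the lower ones (adjusted p = 0.0356). The summed level of the list ran from 111.4 to 282.02 CPM in PoEMs and from 98.3 to 237.4 CPM in non-PoEMs. Most of that sum was Cdh1, the E-cadherin gene and the 1 marker higher in the blocked fit, at 124.0 CPM in PoEMs and 75.9 CPM in non-PoEMs on average, whereas 9 of the 12 tested markers had a negative log2 fold change. No marker of the list was at 0 in all libraries.

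Other mesenchymal transcription factor genes were mostly too low to test: of 23 on the list, 17 lay below the filter, and Tcf21 and Six2 had no count in any library. Of the 6 tested, 1 was lower and 0 were higher (2 lower and 0 higher in the blocked fit). That gene was Zeb2, a zinc finger factor that macrophages themselves express, at 493.4 ± 30.4 CPM in PoEMs and 623.9 ± 81.8 CPM in non-PoEMs (SD, n = 5 each, edgeR adjusted p = 0.0253). Without the block this no longer held on dropping PoEMs of tumour 1 or non-PoEMs of tumour 2, 4 or 5 (adjusted p up to 0.0675). With the block Zeb2 was lower as well (adjusted p = 0.000313). Snai1, a repressor of epithelial genes, differed by 0.16 ± 0.16 and Foxc1 by -0.18 ± 0.23 on the log2 scale (SE).

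The secreted-protein genes had the largest change and the highest level. Fstl1 (ENSMUSG00000022816, chromosome 16, 37776873 to 37836514, plus strand), which encodes the follistatin-like glycoprotein FSTL1 made by many mesenchymal cells, measured 12.9, 8.02, 11.5, 15.5 and 12.6 CPM in PoEMs, against 1.56, 1.05, 0.995, 1.01 and 1.02 CPM in non-PoEMs. Every PoEM library was at least 5 times the highest non-PoEM library. The log2 fold change was 3.42 ± 0.20 (SE, edgeR adjusted p = 1.69e-06), a 10.7-fold difference. Among the 10 genes only Fstl1 came near the change of the type I collagen genes, which were 15.4-fold (Col1a1) and 16.4-fold (Col1a2) higher in the same fit.

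Pi16 (ENSMUSG00000024011, chromosome 17, 29317680 to 29330593, plus strand), which encodes a peptidase inhibitor known from a fibroblast population shared by many tissues, measured 38.1, 30.9, 23.7, 33.8 and 54.9 CPM in PoEMs, against 23.6, 24.7, 19.6, 24.0 and 42.9 CPM in non-PoEMs. It was higher in PoEMs of each tumour, by 1.21 to 1.61 times, while the tumours differed more than the fractions did, tumour 6 being highest in both. Without the block the log2 difference was 0.43 ± 0.26 (SE, edgeR adjusted p = 0.315). In the blocked fit it was 0.43 ± 0.07 (SE; adjusted p = 0.000359), so the call rests on the pairing. Per kilobase of annotated exon, Pi16 stood highest of the 10 genes, at 5.70 ± 1.83 CPM per kb in PoEMs and 4.23 ± 1.43 CPM per kb in non-PoEMs (SD, n = 5 each). On the same scale Fstl1 came second in PoEMs, at 2.47 ± 0.555 CPM per kb, but had only 0.230 ± 0.0497 CPM per kb in non-PoEMs.

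Other genes of the Pi16 fibroblast population did not share one direction. Of 10 genes on that list, Pi16 included, 7 were tested, 2 were higher and 1 was lower. The 3 below the filter were not tested. Sema3c had 45 counts in all PoEMs and 7 in all non-PoEMs, Tmem100 had 13 and 0, and Efhd1 had 15 and 12. Dpt, which encodes the small matrix-associated protein dermatopontin, measured 2.04 ± 0.955 CPM in PoEMs and 0.655 ± 0.403 CPM in non-PoEMs (SD, n = 5 each, edgeR adjusted p = 0.0293), which no longer held without PoEMs of tumour 1, 4 or 5 or non-PoEMs of tumour 5 or 6 (adjusted p up to 0.0681). Anxa3, an annexin gene, measured 241.5 ± 9.16 CPM in PoEMs and 180.7 ± 24.5 CPM in non-PoEMs (adjusted p = 0.00594). Dpp4, a surface peptidase gene that dendritic and T cells also use, was lower, at 2.68 ± 1.32 CPM in PoEMs and 8.94 ± 6.61 CPM in non-PoEMs (adjusted p = 0.0416), which no longer held without PoEMs of tumour 1, 4, 5 or 6 or non-PoEMs of tumour 1 or 5 (adjusted p up to 0.0968). The blocked fit called 4 higher and 2 lower, Dpt among the higher (adjusted p = 0.0157) and Dpp4 among the lower (adjusted p = 5.74e-05).

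The contractile genes both rose, and in PoEMs 1 tumour stood out for both. Acta2 (ENSMUSG00000035783, chromosome 19, 34241090 to 34255590, minus strand), the smooth muscle actin gene whose promoter is printed above, measured 3.02, 3.32, 2.87, 3.73 and 6.44 CPM in PoEMs, against 0.938, 1.18, 2.56, 1.59 and 1.39 CPM in non-PoEMs. PoEMs of tumour 6 were highest, and non-PoEMs of tumour 4 came nearest to the PoEM range. The log2 fold change was 1.33 ± 0.29 (SE, edgeR adjusted p = 0.0109), and the ratio within tumours ran from 1.12 in tumour 4 to 4.63 in tumour 6. The sources used here do not say how reads shared with the other actin genes were treated, and the level of Acta2 is uncertain to that extent.

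Tagln (ENSMUSG00000032085, chromosome 9, 45929619 to 45936058, minus strand), which encodes the actin-binding protein transgelin, measured 3.02, 2.96, 2.48, 2.59 and 4.81 CPM in PoEMs, against 0.860, 1.25, 1.49, 1.08 and 1.02 CPM in non-PoEMs. As for Acta2, the ratio was lowest in tumour 4, at 1.66, and highest in tumour 6, at 4.70. The log2 fold change was 1.46 ± 0.23 (SE, edgeR adjusted p = 0.00147). An antisense gene, Gm48529, covers 62.4% of the annotated exon bases of Tagln, and Pcsk7 on the opposite strand covers 5.43%. The strand setting of the counts is not given, so Tagln reads cannot be told apart from antisense ones.

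**Figure D3:**
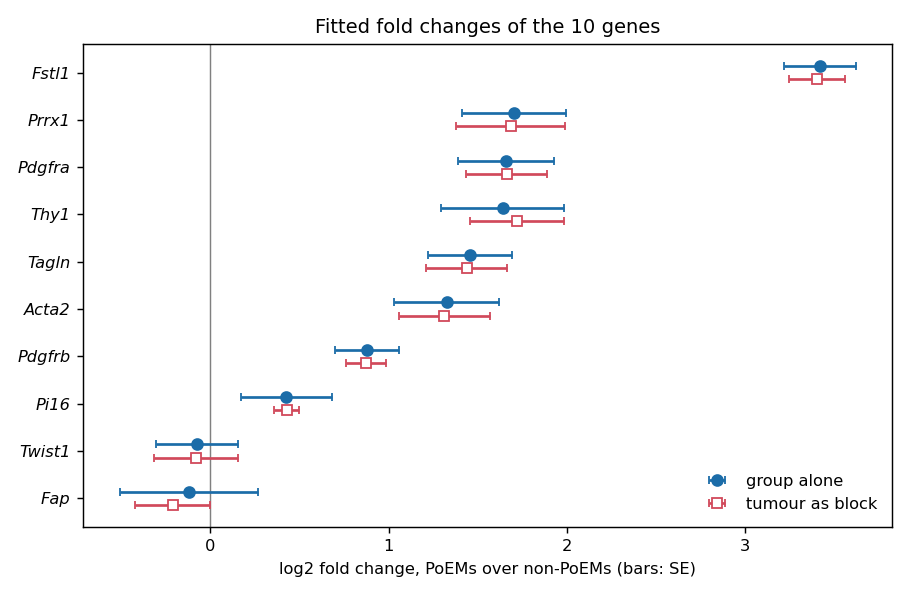
Fitted log2 fold change of PoEMs over non-PoEMs for the 10 genes (horizontal axis, bars are the SE) from the fit with group alone and from the fit with the tumour as a block. Fstl1 stands apart at 3.42, 6 genes lie between 0.88 and 1.70, and the SE of Pi16 is 0.07 with the block and 0.26 without it.

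Most of the other smooth muscle genes that could be tested were not called higher, unlike Acta2 and Tagln. Of 27 genes of the smooth muscle and contractile list found in the table, 15 were tested, 4 were higher and 3 were lower (6 and 4 in the blocked fit), and the median of the tested genes was 0.20 on the log2 scale. The 12 below the filter were not tested and had no common direction. Myl9 had 37 counts in all PoEMs and 11 in all non-PoEMs, whereas Synpo2 had 6 in PoEMs and 27 in non-PoEMs. Pdlim7, an actin-associated scaffold gene, was higher at 85.2 ± 6.01 CPM in PoEMs and 47.8 ± 4.404 CPM in non-PoEMs (SD, n = 5 each, edgeR adjusted p = 1.81e-05), as was the actin cross-linker gene Palld at 45.4 ± 7.44 CPM in PoEMs and 28.7 ± 6.11 CPM in non-PoEMs (adjusted p = 0.0135). The other 2 higher genes, Actn1 and Csrp1, held less firmly in the fit without the block. On dropping 1 library, Actn1 held only without PoEMs of tumour 2 or non-PoEMs of tumour 6 (adjusted p up to 0.0884 otherwise). Csrp1 held only without PoEMs of tumour 6 or non-PoEMs of tumour 5 (adjusted p up to 0.126 otherwise). With the block, Actn1 (adjusted p = 1.28e-05) and Csrp1 (adjusted p = 0.00446) were both higher. Mylk, the myosin light chain kinase gene, was lower, at 0.675 ± 0.270 CPM in PoEMs and 5.17 ± 2.22 CPM in non-PoEMs (adjusted p = 0.000168), and so was the calponin gene Cnn2, at 81.4 ± 7.95 CPM in PoEMs and 118.7 ± 20.7 CPM in non-PoEMs (adjusted p = 0.00688). Srf, which encodes serum response factor, was lower, with a log2 fold change of -0.27 ± 0.08 (SE, adjusted p = 0.0325). Without the block this held only where the dropped library was a non-PoEM one of tumour 1, 2 or 4 (adjusted p up to 0.074 otherwise). With the block Srf was lower as well (adjusted p = 0.00313).

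Genes that define mature smooth muscle were scarce in both fractions. Myh11, the smooth muscle myosin heavy chain gene, had 4 counts in all PoEMs and 7 in all non-PoEMs, Cnn1 had 13 in PoEMs and 1 in non-PoEMs, and Lmod1 and Myocd had none in any library. Of 10 pericyte markers, 4 were tested and 0 were called in either direction. The nearest were Rgs5, at 0.578 ± 0.147 CPM in PoEMs and 1.11 ± 0.394 CPM in non-PoEMs (SD, n = 5 each, edgeR adjusted p = 0.0577), and Cox4i2, at 7.55 ± 1.61 CPM in PoEMs and 4.88 ± 1.36 CPM in non-PoEMs (adjusted p = 0.059). In the blocked fit, Cox4i2 was higher (adjusted p = 0.00739) and Rgs5 lower (adjusted p = 0.0358). Pericyte markers summed to between 11.5 and 18.1 CPM in PoEMs and between 8.89 and 12.4 CPM in non-PoEMs. Cox4i2 alone made up much of these sums, and 2 of the 4 tested markers had a negative log2 fold change.

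Of 30 other fibroblast surface and secreted genes that are not structural matrix, 24 were tested, 13 were higher, 0 were lower and 11 were not called. The 6 below the filter were not tested, and each had more counts in all PoEMs than in all non-PoEMs. These counts were few, from 5 against 1 for Mme to 51 against 3 for Islr. The blocked fit called 13 higher and 1 lower, Ly6a, which encodes the stem cell antigen SCA1 (adjusted p = 0.0368). Of the 13, 6 (Cd248, Lrrc15, Mrc2, Cxcl12, Ptx3 and Fkbp10) had no non-PoEM library at the filter level, so they entered the test only through the PoEM libraries where they are high. Among the other 18 tested genes 7 were higher. Lrrc15, a marker of activated tumour fibroblasts, measured 3.35 ± 0.812 CPM in PoEMs and 0.205 ± 0.112 CPM in non-PoEMs (SD, n = 5 each), a difference of 4.00 ± 0.33 in log2 (SE; edgeR adjusted p = 1.18e-05). Cd248, which encodes the stromal surface protein endosialin, measured 1.94 ± 0.544 CPM in PoEMs and 0.169 ± 0.119 CPM in non-PoEMs (adjusted p = 0.000206). The complement inhibitor gene Serping1 was higher by 2.48 ± 0.27 on the log2 scale (SE). Cd34 and Igfbp4, the members of that list farthest from the threshold, differed by -0.02 ± 0.32 and 0.03 ± 0.14 on the log2 scale (SE). The 16 matrix genes listed for comparison were all higher. They are fibrillar collagen genes together with genes of other collagens, proteoglycans and glycoproteins of the matrix. Lum, 1 of the 16, entered the test only through the PoEM libraries.

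**Figure D4:**
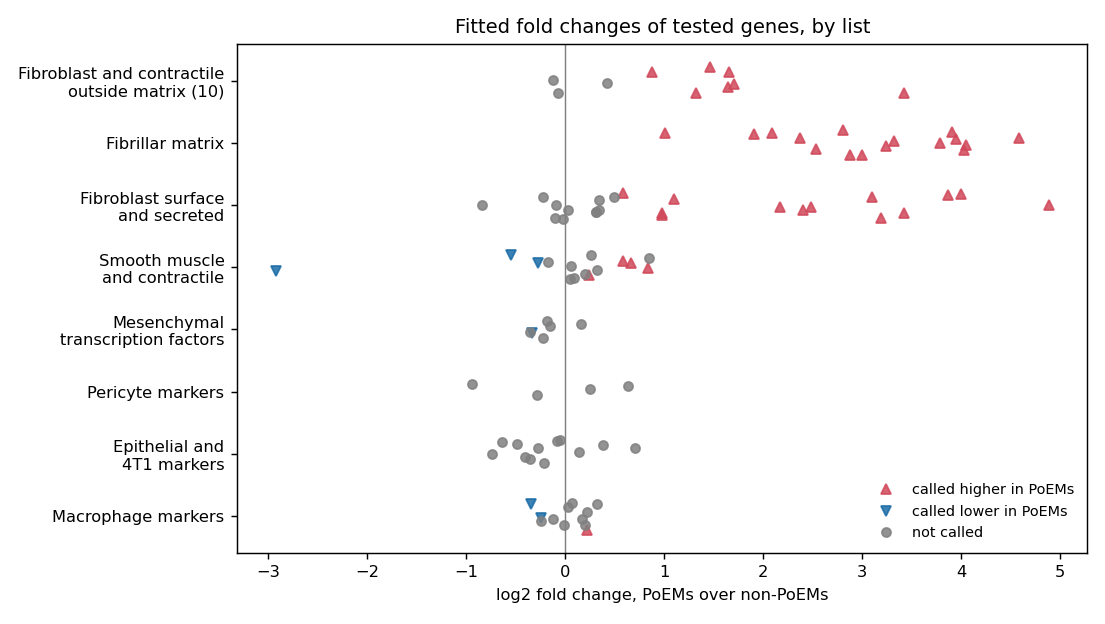
Fitted log2 fold change (horizontal axis) of each tested gene, 1 point per gene, for the 10 genes and 7 comparison lists (rows, with vertical scatter for legibility only), marked by whether edgeR called it higher, lower or neither. All 16 genes in the row labelled fibrillar matrix, which also holds other matrix genes, lie right of 0. The smooth muscle list has 4 higher and 3 lower.

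The members were next set against type I collagen reads of the same library, to see whether they kept a fixed proportion to the main fibroblast product. Col1a1 and Col1a2 together had between 2140 and 3533 counts in PoEM libraries and between 108 and 208 in non-PoEM libraries. Per 100 of these counts, Prrx1 had 0.742 ± 0.0796 in PoEMs and 3.78 ± 1.64 in non-PoEMs (SD, n = 5 each). Among PoEMs its proportion had the lowest coefficient of variation of the 10 genes, at 10.7%. That value rests on 15 to 31 Prrx1 counts per PoEM library, where counting error is large, and does not show a steadier proportion. Fstl1 had 6.02 ± 1.11 in PoEMs and 9.27 ± 2.88 in non-PoEMs and was the only gene whose proportions overlapped between the fractions. In the other 9 every non-PoEM library lay above every PoEM library, as was also so for 99.4% of all genes tested, and nothing particular to the 9 can be read from it.

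For the genes that missed the threshold in CPM, the proportions restate that result against collagen. Fap had 2.35 ± 1.46 counts per 100 type I collagen counts in PoEMs and 43.1 ± 17.5 in non-PoEMs, and Twist1 had 0.623 ± 0.245 in PoEMs and 10.3 ± 1.57 in non-PoEMs. Pi16 had 18.01 ± 4.77 in PoEMs and 213.4 ± 51.3 in non-PoEMs, that is, more Pi16 than type I collagen counts in each non-PoEM library. These proportions share their collagen counts, so they move together, and Fap varied most among PoEMs, with a coefficient of variation of 62.04%.

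**Figure D5:**
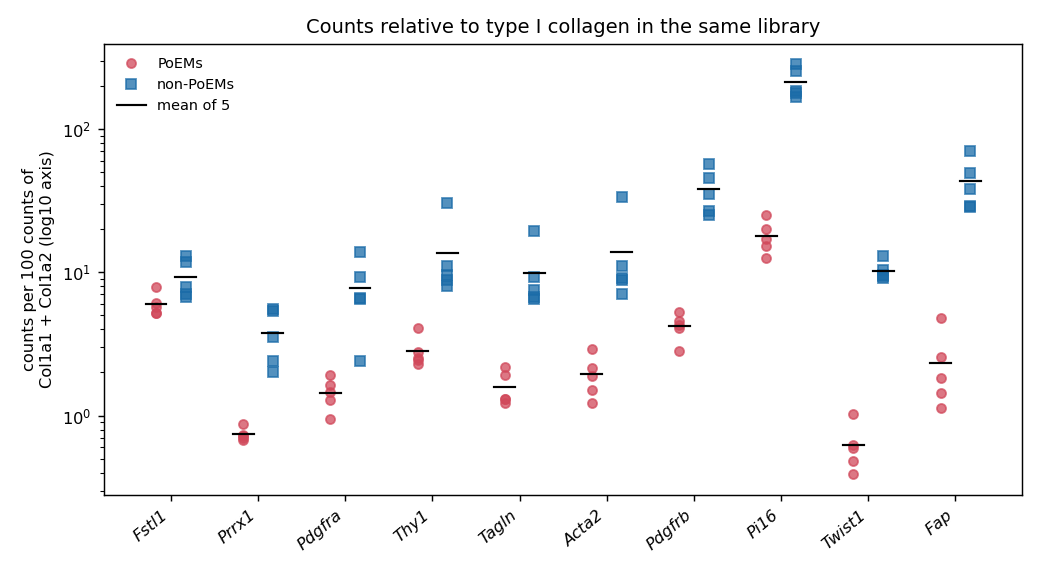
Counts of each gene per 100 counts of Col1a1 and Col1a2 in the same library (log10 axis), with PoEM libraries left of non-PoEM libraries and a bar at the mean of 5. Fstl1 is the only gene whose ranges meet, from 5.19 to 7.89 in PoEMs and from 6.73 to 12.96 in non-PoEMs.

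Genes outside the list with the most similar profile were found by the root mean square difference between centred log2 CPM values over the 10 libraries, taken against the mean profile of the 10 genes, among 9646 genes whose mean log2 CPM reached 3. The nearest was Serpinh1, the gene of the collagen chaperone HSP47, with a difference of 0.121, at 12.1 ± 1.44 CPM in PoEMs and 5.64 ± 0.362 CPM in non-PoEMs (SD, n = 5 each). Tnfrsf23 (0.155), Lgals3 (0.219), Rnf128 (0.224), 5730416F02Rik (0.232), Pls3 (0.232), Ctsd (0.235) and Impdh1 (0.243) followed. Lgals3 and Ctsd, which encode galectin 3 and the lysosomal protease cathepsin D, are abundant macrophage genes. Lgals3 measured 1018 ± 152 CPM in PoEMs and 502.8 ± 80.2 CPM in non-PoEMs. The cut-off kept out genes as scarce as Prrx1, Pdgfra, Cd248 or Lrrc15, so only more abundant genes could be neighbours. The mean profile also averages genes with log2 changes from -0.12 (Fap) to 3.42 (Fstl1). The neighbours therefore do not tell which cells the 10 genes came from. The mean profile was highest in PoEMs of tumour 6, at 0.79 above the mean of all libraries on the log2 scale, and lowest in non-PoEMs of tumour 5, at -0.67.

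Markers of other cell types were counted in the same way. All 8 tested eosinophil and neutrophil markers of 10 were lower in PoEMs, where the list summed to between 99.8 and 136.1 CPM, against 259.7 to 421.0 CPM in non-PoEMs. Cxcr2 was lower only narrowly (edgeR adjusted p = 0.04999). Without the block its call was lost once any single library other than non-PoEMs of tumour 1 or PoEMs of tumour 5 was dropped (adjusted p up to 0.119). In the blocked fit Cxcr2 was lower (adjusted p = 0.000101). Blood endothelial markers summed to between 103.4 and 279.5 CPM in PoEMs and between 88.4 and 204.9 CPM in non-PoEMs, and none of the 4 tested of 12 passed (1 was higher with the block). That gene was Pecam1, which made up most of the sum on average, at 156.0 CPM in PoEMs and 112.0 CPM in non-PoEMs. A negative log2 fold change was found for 2 of the 4 tested. Lymphatic endothelial markers, with 2 tested of 6, skeletal muscle markers, with 2 tested of 8, and adipocyte markers, with 0 tested of 6, had no call. Adipocyte markers summed to at most 0.775 CPM in PoEMs and 1.72 CPM in non-PoEMs. The part of these cell types in the results above was not tested.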

How the data were processed

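The authors deposited raw counts per gene for 10 libraries prepared with SMART-Seq pre-amplification, per the labels. The counts are reads, not molecules. The submitters' processing notes name STAR, featureCounts, Bowtie2 and cutadapt. Their settings, the genome build, the annotation and the strand setting are not stated there or in the labels. Columns were matched by title. Genes were kept with filterByExpr (minimum count 10, minimum total 15), scaled by TMM and tested with edgeR 4.0.16 in R 4.3.3 (glmQLFit with robust dispersions, group alone), with adjustment over 13595 genes. The SE is the absolute log2 fold change divided by the square root of the F statistic. DESeq2 1.42.0 and a fit with the tumour as a block were alternatives. The tumour number in the labels pairs the fractions: deviations from the group means correlated at 0.237 to 0.499 within tumours over 13595 genes. P-values speak for these tumours, and counting error limits the genes with few reads. Positions and exon lengths come from GENCODE M21 (GRCm38), which may differ from the build used for counting.

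The 10 genes and the comparison lists were chosen with earlier results of these data known. Genes named from a list are up to 4 called ones with the lowest p and up to 2 with the highest p. Those chosen after their values were seen are Csf1r, Ifih1, Gm48529, Pcsk7, Myh11, Cnn1, Lmod1, Myocd, Myl9, Synpo2, Actn1, Csrp1, Srf, Tcf21, Six2, Pdgfa, Pdgfd, Epcam, Snai1, Rgs5, Cox4i2, Pecam1 and the T cell list. The same holds for Cdh1, Ly6a, Cxcl12, Ptx3, Fkbp10, Lum, Sema3c, Tmem100, Efhd1, Mme and Islr.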

Additional observations from a re-analysis of the deposited data

Results flagged for a closer look

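Among 20 sets of 5 libraries (10 genes in either fraction), 5 held 1 library whose gap to its neighbour took up more than 0.71 of the range, where chance gives about 1 in 20. Thy1 in non-PoEMs of tumour 2 was 4.06 CPM, against 0.853 to 1.46 CPM in the other non-PoEMs. Fstl1 in non-PoEMs of tumour 1 was 1.56 CPM, against 0.995 to 1.05 CPM. The other 3 were in tumour 6: Acta2 at 6.44 CPM in PoEMs, against 2.87 to 3.73 CPM, Tagln at 4.81 CPM in PoEMs, against 2.48 to 3.02 CPM, and Pi16 at 42.9 CPM in non-PoEMs, against 19.6 to 24.7 CPM. Without the PoEM library of tumour 6 the calls for Acta2 and Tagln stayed under the threshold.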

How the results depend on the processing

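The 7 higher and 0 lower calls among the 10 genes were found again with DESeq2 size factors, with library totals alone, with no filter, with the DESeq2 test and on leaving out each library in turn (7 to 7 higher, 0 to 0 lower), and every fit with the tumour as a replicate block gave 8 higher, Pi16 being added, and 0 lower. Apart from Pi16, the replicate block changed no call among the 10 genes. For Pi16 the adjusted p was 0.000359 with the block, against 0.0665 to 0.575 with a library left out and no block. The sign of 2 uncalled genes turned: leaving out 1 library moved Fap between -0.616 and 0.061 and Twist1 between -0.193 and 0.0207 on the log2 scale, and Twist1 was 0.0722 with the replicate block and without tumour 6. Counts over all genes were 929 higher and 920 lower. They became 1880 and 1950 with the replicate block, and 1445 lower with the DESeq2 test and block. On leaving out 1 library they ran from 617 to 1049 higher and from 577 to 1026 lower, and with the block and without tumour 1, 2, 4, 5 or 6 in turn they were 1505, 1360, 1447, 1398 and 1925 higher and 1692, 1380, 1677, 1564 and 2016 lower. The cause was not tested. The counts moved by over 1.5 times without PoEMs of tumour 4 (617 higher, 588 lower) and without non-PoEMs of tumour 2 (577 lower). The gap in summed level, 34.9 CPM, was 28.6 to 39.3 CPM with a library left out and 19.5 CPM without Acta2, Tagln and Fstl1. Depth limits the genes with few reads, among them Prrx1 and Pdgfra with 32 and 63 reads in all non-PoEMs, and Twist1 with 84 in all PoEMs and 89 in all non-PoEMs.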
